A study of Mus musculus with 6 samples.

Results

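Mitochondrial ribosomal protein genes were followed in mouse embryonic stem cells that were made to express Lef1 for 1 day while they began to differentiate. The genes were found by symbol, as every name in the gene column that consists of Mrpl or Mrps, a number and at most 1 further letter. This gave 76 genes, 47 of the large subunit (Mrpl) and 29 of the small subunit (Mrps), in 76 of the 36699 rows of the authors' deposited table. All 76 were among the 18114 rows that the authors tested, so no member was lost to a filter.

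Both groups were A2Lox.cre embryonic stem cells, a line built to take up a doxycycline-inducible transgene, here Flag-Lef1. The cells had been kept on mouse embryonic fibroblasts, which were stripped away before the cells were grown in suspension as embryoid bodies, floating aggregates in which differentiation starts, and all were harvested on day 3. The plus_Dox group (3 libraries, numbered 1, 2 and 3) received doxycycline from day 2, for 24 h, and the minus_Dox group (3 libraries, numbered 1, 3 and 4) received none. The comparison therefore holds doxycycline and Lef1 together, since no group had doxycycline without the transgene. Whether the libraries came from separate cultures was not given in the sources used here, so p-values apply to these libraries only and need not hold for new cultures.

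The table holds 1 pooled FPKM value per group (sequenced fragments scaled to transcript length and library size), not 1 per library, and the depth is unknown. Each log2 fold is plus_Dox over minus_Dox, the standard error (SE) is the size of that fold divided by the authors' statistic, and a gene is called higher or lower where the authors' q-value (the Benjamini-Hochberg adjusted p over all tested rows) was under 0.05. Lef1, the induced gene, stood at 7.56 FPKM in minus_Dox and 51.0 FPKM in plus_Dox by the authors' deposited table (log2 fold 2.75, SE 0.19). Of 9 markers of feeder fibroblasts, 6 were under 1 FPKM in minus_Dox, their summed level was 18.5 FPKM in minus_Dox and 23.6 FPKM in plus_Dox, and 0 of the 8 tested were called. Of 8 markers of undifferentiated and epiblast-stage stem cells, 3 were called higher and 1 lower, and the summed level of the 7 tested was 1680 FPKM in minus_Dox and 2679 FPKM in plus_Dox. Pou5f1, the largest part of that sum (820 and 1510 FPKM), was not called (q = 0.055). Nanog, Utf1 and Dppa5a were called higher, Sox2 was called lower (56.2 and 30.9 FPKM), and Lin28a (151 and 142 FPKM) was not called. Dnmt3b, the other marker of that list, was marked as too deep to test, was listed at 0 in minus_Dox and is left out of the sum. The part of these marker changes in the results that follow was not tested. In bulk RNA, a change in the number of cells of a type and a change in RNA per cell cannot be told apart.

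Mitochondria keep a small genome, and the few respiratory chain proteins encoded there are made by ribosomes inside the organelle. The RNA of these ribosomes comes from the mitochondrial genome, whereas all of their proteins are encoded in the nucleus, translated in the cytosol and imported. The small subunit binds the messenger RNA and holds the decoding centre. The large subunit forms the peptide bond and guides the new chain through an exit tunnel towards the inner membrane. Some of the proteins have counterparts in bacterial ribosomes, and others occur only in the mitochondrial ribosome.

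The genes lay on 17 chromosomes, with 10 on chromosome 11 and 8 on chromosome 17. Promoters are shown for the 2 members with the largest rise (Mrps12 and Mrpl52) and the 2 with the lowest fold (Mrpl50 and Mrpl1), to set the ends of the family side by side. They are RefSeq sequences of build GRCm38.p6, read 5′ to 3′ on the gene's strand and ending at the base before the transcription start. Mrps12 (chr7:28741822-28741991, minus strand) and Mrpl50 (chr4:49521084-49521175, minus strand) stop short of 250 bases where a neighbouring gene begins. Mrpl52 lies at chr14:54426659-54426908 on the plus strand and Mrpl1 at chr5:96209865-96210114 on the plus strand. Capitals mark matches to the motifs searched, and the window length was chosen after matches had been seen.
Mrps12: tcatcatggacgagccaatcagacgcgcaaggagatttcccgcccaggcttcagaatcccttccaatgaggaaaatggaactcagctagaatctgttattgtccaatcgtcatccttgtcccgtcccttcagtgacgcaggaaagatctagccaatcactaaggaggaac
Mrpl52: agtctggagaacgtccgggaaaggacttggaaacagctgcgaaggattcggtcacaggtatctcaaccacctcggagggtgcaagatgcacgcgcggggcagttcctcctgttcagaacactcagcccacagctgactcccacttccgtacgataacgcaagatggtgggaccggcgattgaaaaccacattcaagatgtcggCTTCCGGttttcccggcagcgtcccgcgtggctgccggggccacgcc
Mrpl50: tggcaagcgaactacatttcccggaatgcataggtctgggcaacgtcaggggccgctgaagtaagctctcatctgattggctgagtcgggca
Mrpl1: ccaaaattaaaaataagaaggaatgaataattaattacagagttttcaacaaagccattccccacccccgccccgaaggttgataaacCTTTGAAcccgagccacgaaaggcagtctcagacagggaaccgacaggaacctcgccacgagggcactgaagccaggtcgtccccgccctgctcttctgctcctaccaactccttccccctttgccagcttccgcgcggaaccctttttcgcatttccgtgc
The capitals in the Mrpl52 promoter are the ETS motif on the reverse strand, starting 47 bases before the start, and those in the Mrpl1 promoter are a Tcf/Lef motif on the forward strand, starting 162 bases before it. Mrps12 and Mrpl50 held no match in the bases shown. In the wider window used for the counts that follow, Mrps12 held the ETS motif and Mrpl50 the core of the YY1 motif.

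The motifs were counted on both strands from 250 bases before to 50 bases after the start, in the 67 members with a promoter entry. The ETS motif CCGGAAG was present in 23 of 67 (34.3%), against 9.12% of 27025 genes and 21.7% of the 6063 genes that had at least 5 FPKM in a tested row. The core of the YY1 motif, ATGGCGGC, was present in 12 of 67 (17.9%), against 2.38% of all genes and 6.09% of those with 5 FPKM. The core of the NRF1 motif, GCATGCGC, was present in 8 of 67 (11.9%), against 2.80% and 6.27%. NRF1 and ETS factors are known regulators of nuclear genes for mitochondrial proteins. These 8-letter cores were taken after longer forms had given 3 (NRF1) and 5 (YY1) of 67. The Tcf/Lef motif CTTTGAT was in 0 of 67 member windows (3.72% of all genes and 2.34% of those with 5 FPKM), and CTTTGAA was in 6 of 67 (8.96%, against 5.27% and 3.61%). By call, the ETS motif was in 11 of 24 called members and 12 of 43 not called, the NRF1 core in 1 of 24 and 7 of 43, the YY1 core in 2 of 24 and 10 of 43, and CTTTGAA in 0 of 24 and 6 of 43. The Tcf/Lef motifs share all letters but the last, each longer form contains its core, and a match describes these letters only. The median GC content of the windows was 58.0% in members, 52.7% in all genes and 61.3% in genes with 5 FPKM. Transcripts had a median GC content of 52.7% in the 29 called members and 49.2% in the 47 not called. The GC content of the windows by call is not given here, and the motif counts by call were not tested.

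The genes were well expressed in both groups. In the authors' deposited table, levels in minus_Dox ran from 12.8 FPKM for Mrpl35 to 183 FPKM for Mrpl42, both of the large subunit. The median was 56.4 FPKM for large subunit genes and 43.0 FPKM for small subunit genes in minus_Dox, and 81.2 and 70.0 FPKM in plus_Dox. Summed over its genes, the large subunit stood at 3232 FPKM in minus_Dox and 4827 FPKM in plus_Dox, a 1.49-fold difference, and the small subunit at 1591 and 2417 FPKM, a 1.52-fold difference. The mean level of a large subunit gene over that of a small subunit gene was 1.25 in minus_Dox and 1.23 in plus_Dox. Across the 76 genes, which share libraries, the log2 levels of the groups had a Pearson correlation of 0.97 (Spearman 0.96). Ordered by level, the genes moved by a median of 3 places, and 8 moved by 10 or more. Mrps12 moved furthest, from place 51 in minus_Dox to 27 in plus_Dox, and Mrpl50 went from 54 to 69.

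**Figure D1:**
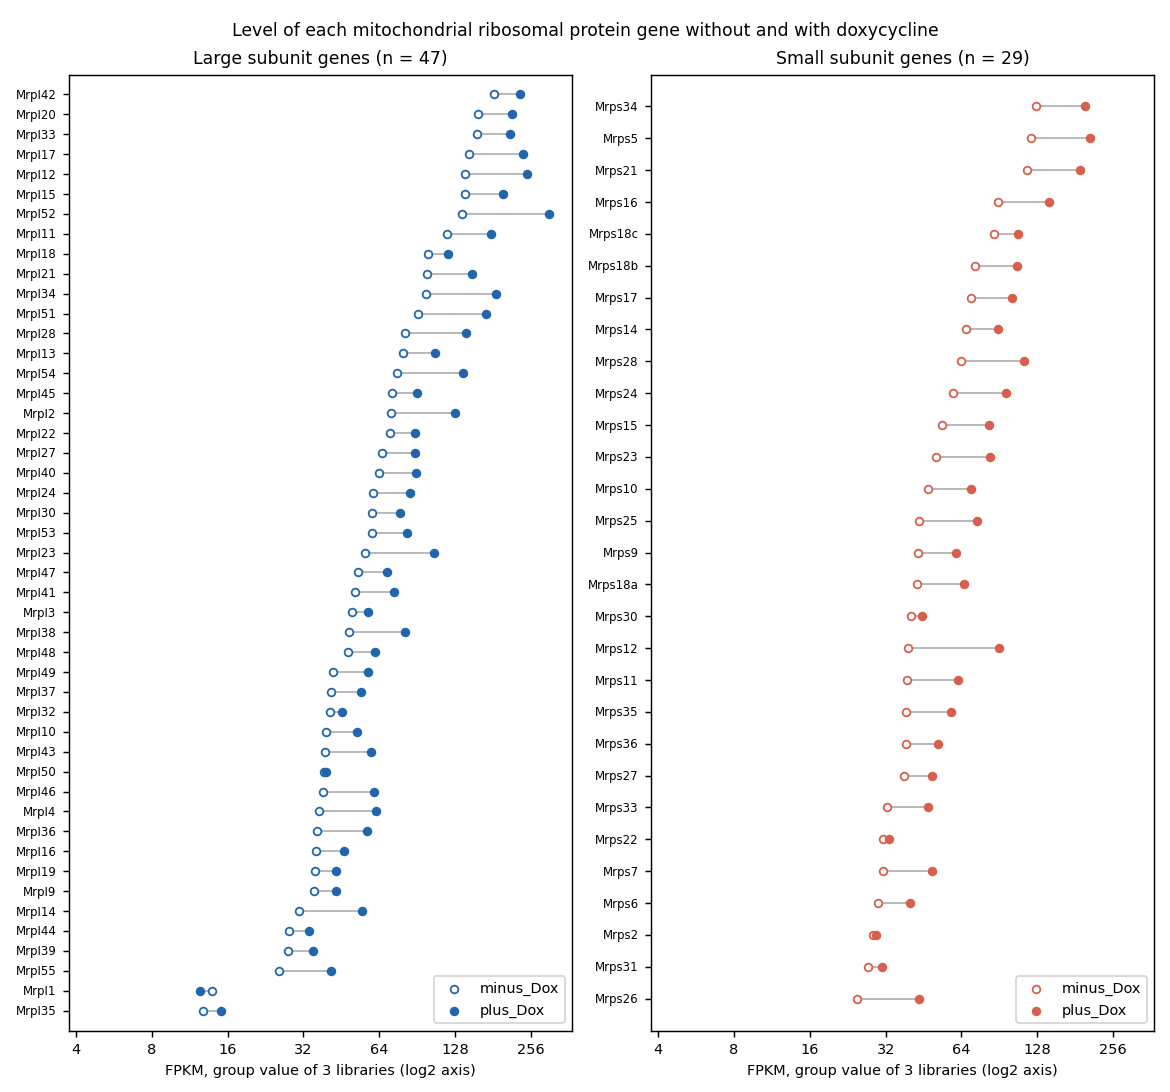
FPKM (log scale) of each of the 76 genes in minus_Dox and in plus_Dox, 1 pooled value per group and gene, by subunit. As deposited, all genes but Mrpl1 are higher in plus_Dox (69 of 76 once the shift of all genes is subtracted), and Mrpl52, at 303 FPKM, is the highest in plus_Dox.

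Of the 3 most abundant genes of each subunit in minus_Dox, 0 of the large and 2 of the small subunit passed the test. In the authors' deposited table, Mrpl42 stood at 183 FPKM in minus_Dox and 232 FPKM in plus_Dox (log2 fold 0.34 with an SE of 0.16 and q = 0.16). Mrpl20 stood at 157 and 215 FPKM (log2 fold 0.45 with an SE of 0.18 and q = 0.088), and Mrpl33, whose row also names Bre, at 156 and 212 FPKM (log2 fold 0.44 with an SE of 0.23 and q = 0.22). Among small subunit genes the highest were Mrps34 (126 and 198 FPKM, log2 fold 0.65, SE 0.24, q = 0.057, in a row shared with Nme3), Mrps5 (121 and 208 FPKM, q = 0.020) and Mrps21 (117 and 190 FPKM, q = 0.0030). Mrpl52 moved from the seventh highest of the 76 to the highest. The ratio of the highest to the lowest member went from 14.4 in minus_Dox to 24.5 in plus_Dox.

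The family was higher in plus_Dox as a group. Of the 76 genes 29 (38.2%) were called higher and 0 lower in the authors' deposited table, while of all tested rows 8.98% were called higher and 3.22% lower. The fold was above 0 for 75 of the 76, and for 69 after the median shift of all genes (0.20 on the log2 scale, over tested rows that reach 1 FPKM) was subtracted. A fold above 0 was found in 65.1% of tested rows with a finite fold and in 69.5% of those with at least 5 FPKM. At an unadjusted p under 0.05, 53 members were higher and 0 lower, and 17.2% of all tested rows were higher. The median log2 fold was 0.51 over the members, 0.20 over all tested rows and 0.23 over rows with at least 5 FPKM. With the minimum of 5 FPKM in the higher group, which all 76 members met, 14.9% of rows were called higher. At a q-value under 0.01, 16 members were called higher, where 4.97% of rows were.

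**Figure D2:**
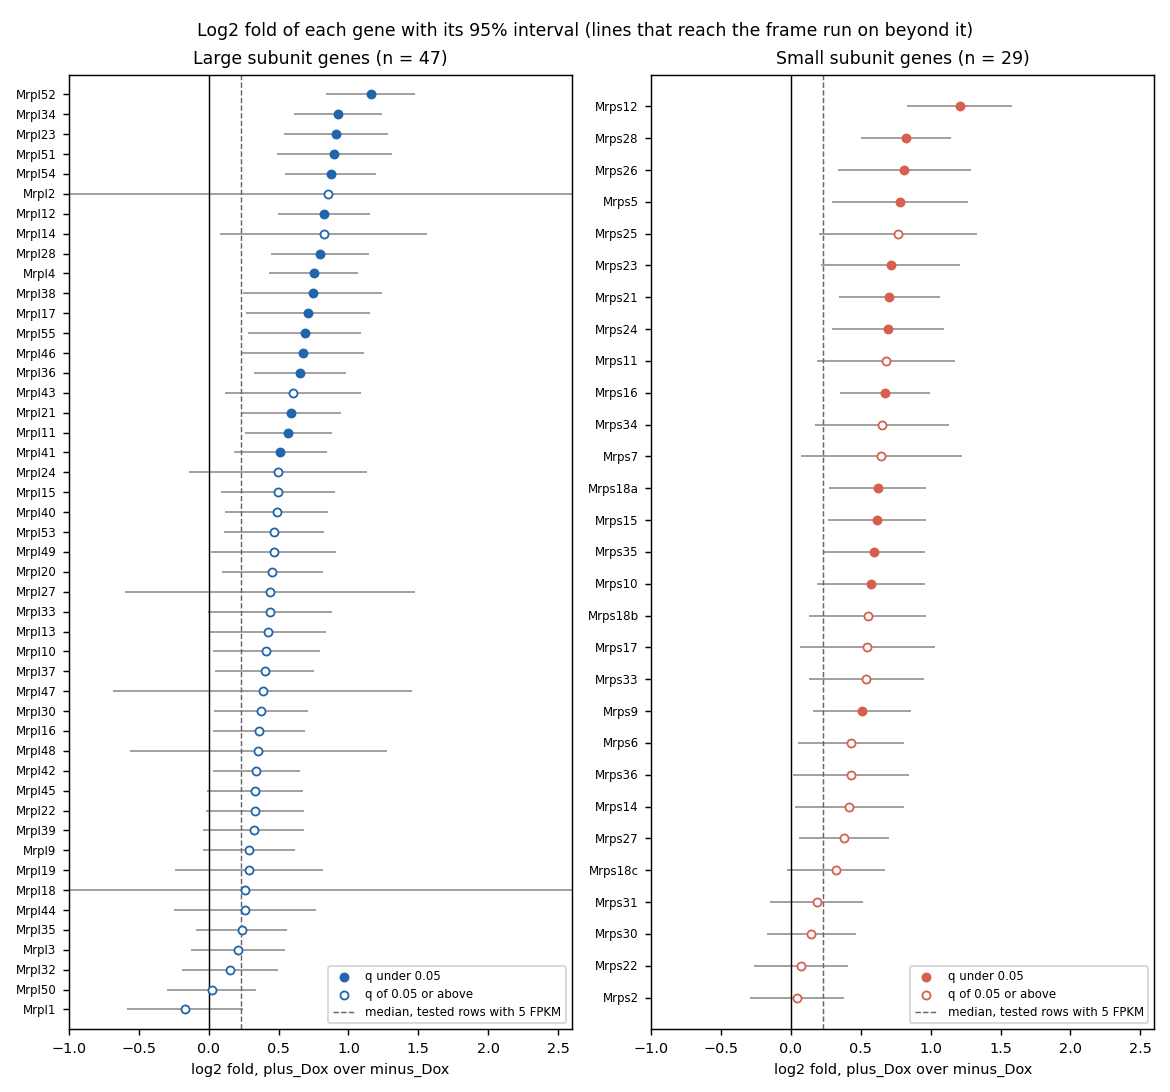
Log2 fold (plus_Dox over minus_Dox, x axis) of each of the 76 genes, ordered by fold within its subunit, with bars for the 95% interval from the authors' test and filled points for calls. Folds run from -0.17 for Mrpl1 to 1.21 for Mrps12, and the bars of Mrpl2 and Mrpl18 leave the axis.

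Of the 47 large subunit genes, 16 rose, 0 fell and 31 did not pass the test, with a median log2 fold of 0.46 (quartiles 0.34 and 0.70). Mrpl52, a protein that occurs only in the mitochondrial ribosome, had the largest fold (chr14:55045745-55048587, build mm9). The authors' deposited table lists 136 FPKM in minus_Dox and 303 FPKM in plus_Dox, a 2.23-fold rise (95% interval 1.79 to 2.78, log2 fold 1.16 with an SE of 0.16 and q = 3.52e-10). Mrpl34 (chr8:73988824-73989651), which has a bacterial counterpart, rose from 98.1 to 186 FPKM (log2 fold 0.92 with an SE of 0.16 and q = 1.41e-06). Both stayed called when the shift of all genes was subtracted. Neither call held when the trend of fold on transcript GC content and length, described later, was removed (Mrpl52 0.37, q = 0.36, and Mrpl34 0.14, q = 1.00).

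Next came Mrpl23 and Mrpl51. Mrpl23, whose bacterial counterpart sits at the mouth of the exit tunnel, rose from 56.4 to 106 FPKM by the authors' deposited table (log2 fold 0.91 with an SE of 0.19 and q = 9.38e-05). Mrpl51 rose from 91.5 to 171 FPKM (log2 fold 0.90 with an SE of 0.21 and q = 0.00064), and Mrpl54 from 75.0 to 137 FPKM (log2 fold 0.87 with an SE of 0.17 and q = 1.61e-05). Both proteins are particular to the mitochondrial ribosome. Mrpl4, whose bacterial counterpart lines the exit tunnel, rose from 36.8 to 61.9 FPKM (log2 fold 0.75 with an SE of 0.16 and q = 0.00019), and Mrpl28 from 81.1 to 141 FPKM (log2 fold 0.80 with an SE of 0.18 and q = 0.00036). With the composition trend removed, the log2 fold was 0.37 for Mrpl23, 0.047 for Mrpl54, 0.045 for Mrpl4 and 0.089 for Mrpl28, none of them called, while Mrpl51 stayed called (0.96, q = 0.00063).

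The flexible stalk of the large subunit, which brings translation factors to the ribosome, is built from Mrpl12 on a base of Mrpl10, beside Mrpl11. Mrpl12 rose from 140 to 248 FPKM by the authors' deposited table (log2 fold 0.82 with an SE of 0.17 and q = 5.92e-05), and Mrpl11 rose from 119 to 177 FPKM (log2 fold 0.57 with an SE of 0.16 and q = 0.0058). Mrpl10 stood at 39.3 and 52.4 FPKM (log2 fold 0.41 with an SE of 0.20 and q = 0.17) and did not pass. Removal of the composition trend left 0.21 for Mrpl12 and 0.46 for Mrpl11, neither called, and -0.008 for Mrpl10. On the opposite side, Mrpl1 forms the stalk that guides spent transfer RNA out. Mrpl1 (chr5:96638511-96695746) was the only member below 0 (and at 0.10 once the composition trend was removed), with 13.9 FPKM in minus_Dox and 12.4 FPKM in plus_Dox (log2 fold -0.17 with an SE of 0.21 and q = 0.76).

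Other large subunit genes lay near the lower end as well. Mrpl50, particular to mitochondria, stood at 38.7 and 39.3 FPKM by the authors' deposited table (log2 fold 0.02 with an SE of 0.16 and q = 1.00). Mrpl32, a protein that a membrane protease matures before assembly, stood at 40.8 and 45.4 FPKM (log2 fold 0.15 with an SE of 0.18 and q = 0.73). Both were below 0 once the shift of all genes was subtracted (-0.18 and -0.048), and above 0 with the composition trend removed (0.12 and 0.35). Mrpl45, which holds the ribosome to the inner membrane, stood at 71.7 and 90.3 FPKM (log2 fold 0.33 with an SE of 0.17 and q = 0.23), and Mrpl3, a protein near the peptidyl transferase centre, at 49.9 and 57.7 FPKM (q = 0.54).

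Of the 29 small subunit genes, 13 rose, 0 fell and 16 did not pass the test, with a median log2 fold of 0.59 (quartiles 0.43 and 0.69). Mrps12 (chr7:29524659-29526839), whose bacterial counterpart is part of the decoding centre, had the largest fold of the family. The authors' deposited table lists 39.2 FPKM in minus_Dox and 90.5 FPKM in plus_Dox, a 2.31-fold rise (95% interval 1.78 to 2.99, log2 fold 1.21 with an SE of 0.19 and q = 6.55e-08). Mrps28 rose from 63.9 to 113 FPKM (log2 fold 0.82 with an SE of 0.16 and q = 3.87e-05), and Mrps26 from 24.6 to 43.2 FPKM (log2 fold 0.81 with an SE of 0.24 and q = 0.012). With the composition trend removed, none of these was called (Mrps12 0.51, q = 0.19, Mrps28 0.18, q = 1.00, and Mrps26 0.75, q = 0.078). Mrps26 is particular to mitochondria, and the locus listed for its row spans 118 kb against 4.95 kb for the gene in GENCODE.

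Further rises were in proteins shared with bacteria and in proteins that are not. By the authors' deposited table Mrps5, a protein of the messenger RNA entry side, had a log2 fold of 0.78 (SE 0.25, q = 0.020). Mrps21 had a log2 fold of 0.70 (SE 0.18, q = 0.0030) and Mrps16 rose from 89.3 to 142 FPKM (log2 fold 0.67 with an SE of 0.16 and q = 0.0013), both with bacterial counterparts. Mrps23, particular to mitochondria, stood at 50.6 and 82.8 FPKM (log2 fold 0.71 with an SE of 0.25 and q = 0.044), and Mrps24, in a row shared with Urgcp, at 59.3 and 95.8 FPKM (log2 fold 0.69 with an SE of 0.20 and q = 0.010). Mrps5 (0.82) and Mrps16 (0.57) stayed called with the composition trend removed, and Mrps21 (0.081), Mrps23 (0.26) and Mrps24 (0.060) did not. The threshold fell among genes of like fold. Mrps9 (q = 0.042) and Mrps23 (q = 0.044) were just inside it, and Mrps11 (log2 fold 0.68, q = 0.054), Mrps34 (q = 0.057) and Mrps25 (q = 0.060) just outside.

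The lowest small subunit folds belonged to Mrps2, Mrps22 and Mrps30. Mrps2, whose bacterial counterpart is among the last proteins to join the subunit, stood at 28.4 and 29.3 FPKM by the authors' deposited table (log2 fold 0.04 with an SE of 0.17 and q = 0.98). Mrps22 stood at 31.4 and 33.0 FPKM (log2 fold 0.07 with an SE of 0.17 and q = 0.91), and Mrps30 at 40.5 and 44.8 FPKM (log2 fold 0.15 with an SE of 0.16 and q = 0.71). All of these turned negative after the shift was subtracted. With the composition trend removed, Mrps2 and Mrps22 were also negative (-0.19 and -0.15), and Mrps30 stood at 0.24.

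Symbols and place in the ribosome differ for a few genes. The products of Mrps30 and Mrps18a sit in the large subunit in structures of the mammalian ribosome, and the product of Mrps36 is now known as part of a metabolic enzyme complex. By the authors' deposited table Mrps18a rose from 42.8 to 65.7 FPKM (log2 fold 0.62 with an SE of 0.18 and q = 0.0075), and Mrps36 stood at 38.4 and 51.7 FPKM (log2 fold 0.43 with an SE of 0.21 and q = 0.19). Mrps18a stood at -0.061 once the composition trend was removed. With Mrps30 and Mrps18a counted in the large subunit and Mrps36 set aside, 17 of 49 large and 12 of 26 small subunit genes were called higher. Over all tested rows 8.98% were called higher, and 14.9% over those with at least 5 FPKM.

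The subunits were then set side by side. The median log2 fold of the large subunit was 0.13 below that of the small subunit (0.46 against 0.59, difference -0.13). The difference of the means was -0.05, and that of the medians was 0.005 once the composition trend was removed. Folds ran from -0.17 to 1.16 in the large subunit and from 0.04 to 1.21 in the small subunit and overlapped almost throughout. No test was made of the difference, since each group has 1 pooled value and genes are not replicates.

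The genes were also divided by whether the protein has a bacterial counterpart. The median log2 fold was 0.45 over 30 large subunit genes with a counterpart (10 called) and 0.47 over 17 without (6 called). In the small subunit it was 0.63 over 16 genes with a counterpart (9 called) and 0.57 over 12 without (4 called), with Mrps36 left aside. Of all rows with at least 5 FPKM, a level that all members reached, 14.9% were called higher. Each class held genes near 0 and genes above 0.8. With the composition trend removed, the medians with and without a counterpart were 0.12 and 0.12 in the large subunit. In the small subunit they were 0.13 and 0.16.

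**Figure D3:**
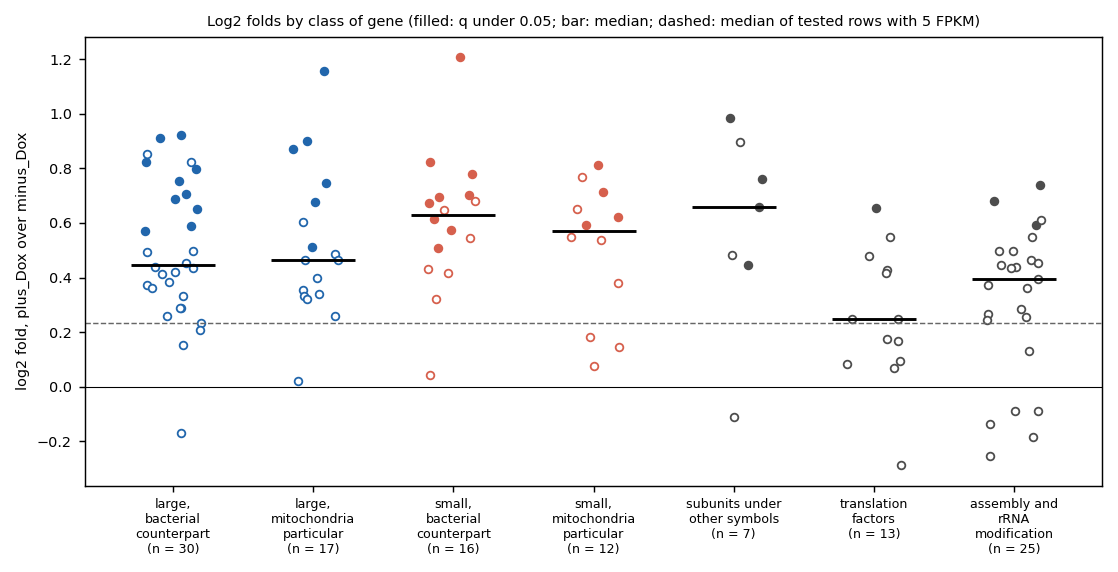
Log2 fold (y axis) of the members by subunit and by presence of a bacterial counterpart, and of the other mitochondrial translation genes by role, 1 point per gene with the median of each class as a line and calls filled. As deposited, class medians of the members run from 0.45 to 0.63, and that of the translation factors is 0.25.

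The precision of the table set part of which genes were called. The smallest test statistic among all calls in the table was 2.74 in size, and 2.80 among called members, so that at the members' median SE of 0.19 a call needed a log2 fold of 0.52, or 1.43-fold. A fold below that was found for 39 members, of which 2 were called, and 10 members above it were not called. The SE exceeded 0.4 in 5 members, Mrpl2, Mrpl18, Mrpl47, Mrpl27 and Mrpl48, of which Mrpl18 (-0.14) and Mrpl27 (-0.092) turned negative with the composition trend removed. Mrpl2 stood at 71.0 and 128 FPKM by the authors' deposited table, a log2 fold of 0.85, with an SE of 4.54 (q = 0.99). The locus listed for its row covers 389 kb against 3.91 kb for the gene in GENCODE. In 21 members the row spans more than 3 times the gene, and wider rows had larger SEs (Spearman 0.50, Pearson 0.55 over 76 genes). A span is that of the locus listed for the row and need not be the stretch counted for the gene. Mrps11 and Mrpl46 list the same locus and have separate values (38.8 and 38.1 FPKM in minus_Dox).

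Rows that name several genes cover 6 members, and their values cannot be divided between the genes. Beside Mrps24, Mrps34 and Mrpl33, these are Mrps6, Mrpl53 and Mrpl48. By the authors' deposited table Mrps6, with Slc5a3, stood at 29.7 and 40.1 FPKM (log2 fold 0.43 with an SE of 0.19 and q = 0.14). Mrpl53, with Ccdc142, stood at 59.9 and 82.6 FPKM (log2 fold 0.47 with an SE of 0.18 and q = 0.077), and Mrpl48, with D630004N19Rik, at 48.1 and 61.6 FPKM (log2 fold 0.36 with an SE of 0.47 and q = 0.77). Without these rows 28 of 70 members were called higher, beside 8.98% of all tested rows, which include rows that join genes. Near-identical copies are listed apart, and how shared reads were divided was not given in the sources used here. Mrpl48-ps stood at 5.48 and 7.60 FPKM, Mrpl23-ps1 at 1.19 and 1.68 FPKM, and both Mrps36 pseudogene rows under 1 FPKM.

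Several members share a start region with another gene. In GENCODE, 17 of the 76 members (22.4%) have a protein-coding neighbour on the other strand whose start lies within 1000 bases in head-to-head orientation, against 6.77% of 21924 protein-coding genes. Of the 16 such neighbours with values, 3 were called higher, 0 lower and 13 not called, with a median log2 fold of 0.32. The 3 calls (18.8%), Sars2, Apba3 and Fau, compare with 8.98% of all tested rows and 14.9% of rows with at least 5 FPKM. No minimum of FPKM was set for the neighbours. Mrps12 and Sars2, the mitochondrial seryl-tRNA synthetase, start 172 bases apart, and Sars2 rose too by the authors' deposited table (log2 fold 0.66, q = 0.0034). Mrpl54 starts 26 bases from Apba3, which rose (log2 fold 0.62, q = 0.040). Mrpl49 did not pass (log2 fold 0.46 with an SE of 0.23 and q = 0.19), while its neighbour Fau, which encodes a cytosolic ribosomal protein, rose (log2 fold 0.93, q = 6.35e-06) from a start 59 bases away. Mrpl51 rose beside Ncapd2 (100 bases away, log2 fold 0.36, q = 0.14), and Mrpl50 lies 83 bases from Zfp189 (log2 fold -0.30, q = 0.48). Mrps11 and Mrpl46 lie on opposite strands with starts that overlap by 412 bases, and both had a log2 fold of 0.68 (q = 0.054 and 0.025). All of these folds are as deposited. With the composition trend removed, Mrps12 (0.51), Mrpl54 (0.047) and Mrpl46 (0.15) were not called, while Mrpl51 (0.96) stayed called. Values after that removal are not given here for the neighbours, and a shared cause of these folds was not tested. The strand of the reads was not given in the sources used here, so where such genes overlap their reads cannot be told apart.

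Fold followed the base composition of the transcript within the family. Across the 76 genes the log2 fold had a Pearson correlation of 0.61 with the GC content of the longest transcript (Spearman 0.59) and of -0.16 with its length (Spearman -0.30). Across 8291 rows with at least 5 FPKM the same correlation with GC content was 0.61 (Spearman 0.69) and that with length -0.32 (Spearman -0.48). These points share libraries and describe them only. Called members had a median GC content of 52.7% and a median length of 1113 nt, and members not called 49.2% and 1424 nt. The median of all members was 50.5% GC and 1284 nt, and that of rows with at least 5 FPKM 50.4% GC and 2817 nt. The members were thus like other expressed genes in GC content and shorter.

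**Figure D4:**
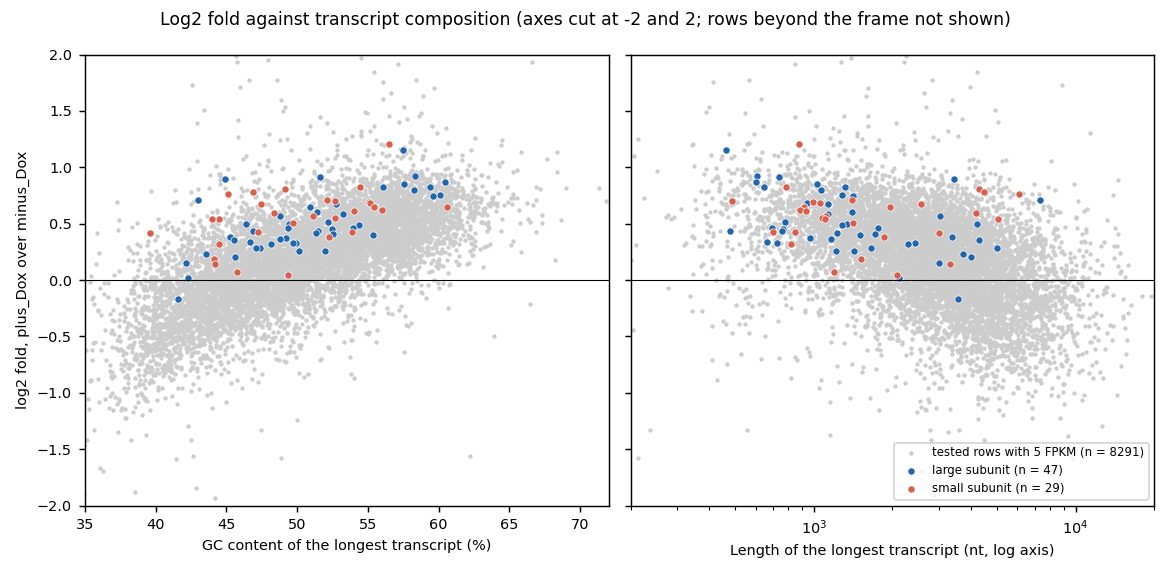
Log2 fold (y axis) against GC content in percent and against length of the longest transcript in nt (log scale) for the 76 genes, by subunit, over the rows with at least 5 FPKM in grey. Genes with more GC have higher folds both in the family and in the grey rows, and most members lie at the short end of the length axis.

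When the trend on GC content and length over all genes was removed, most calls in the family were lost. Of the 76 members 6 were then called higher, 2 large and 4 small subunit genes, and 0 lower, where 1.22% of rows were called higher and 0.965% lower. The trend took up 0.42 of the variance of the fold over the rows it was fitted on, those with at least 1 FPKM. The median fold of the members was 0.12, against -0.004 in rows with at least 5 FPKM, and 57 of 76 stayed above 0, against 49.1% of those rows. The called genes were Mrpl51 (0.96, q = 0.00063), Mrpl17 (1.04, q = 0.00066), Mrps14 (0.81, q = 0.0040), Mrps16 (0.57, q = 0.030), Mrps25 (0.95, q = 0.047) and Mrps5 (0.82, q = 0.048). Of these, 4 were also called before the correction. The fold of 19 members turned from above to below 0, and that of Mrpl1 the other way.

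The 6 genes have longest transcripts of 2572 to 7300 nt, all above the median of the members, and their GC content is 39.6% to 47.5%. The locus listed for Mrpl17 spans 111 kb and that for Mrps25 92.6 kb. With the median over each gene's transcripts in place of the longest one, 7 members were called (1.23% of rows), 5 of them shared with the 6, and Mrps14 was not (0.47, q = 0.32). With the trend on length alone removed, 6 members were called (1.86% of rows), and with that on GC content alone 7 (1.51% of rows). After the shift of all genes alone was subtracted, 11 were called higher and 0 lower, where 3.47% of rows were called higher and 6.1% lower. All 11 were calls of the authors' test too, among them Mrps12, Mrpl52, Mrpl34, Mrpl23, Mrpl51 and Mrpl54. The part of transcript composition in the family's rise was not tested beyond these corrections.

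**Figure D5:**
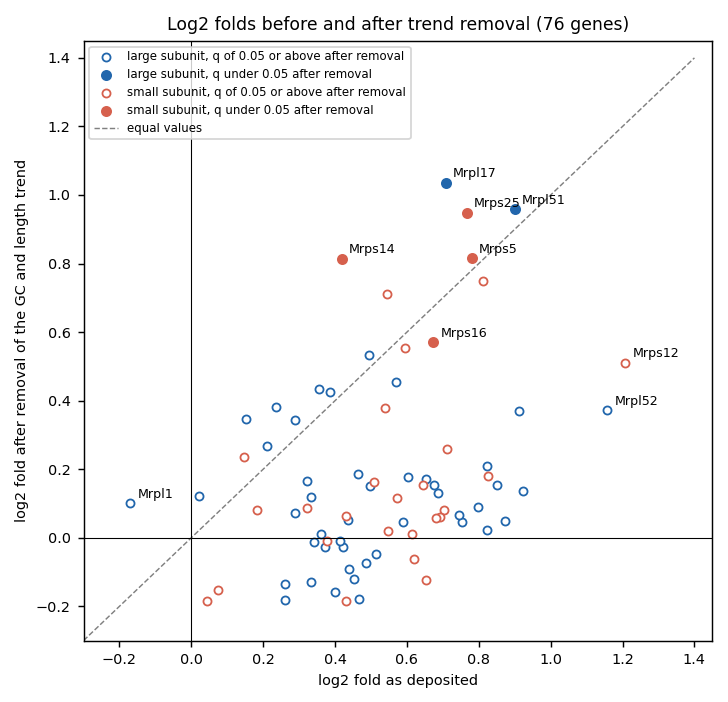
Log2 fold of the 76 genes as deposited (x axis) and after the trend on GC content and length over all genes was removed (y axis), by subunit, with a line of equal values and filled points for genes called after removal. Most points lie below the line, and Mrpl17, Mrpl51, Mrps25, Mrps5, Mrps14 and Mrps16 are the called genes.

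Other genes of mitochondrial translation were read from a list of ribosomal proteins under other symbols, assembly factors and translation factors. Of 45 such genes, 8 (17.8%) were called higher and 0 lower, with a median log2 fold of 0.42, against 8.98% of all tested rows called higher. Of the 43 that reached 5 FPKM, 8 (18.6%) were called higher, near the 14.9% of all rows with that minimum. The median was 0.66 over 7 ribosomal proteins that carry other symbols, 0.39 over 25 genes for assembly and ribosomal RNA modification, and 0.25 over 13 translation factors. Ribosomal proteins under other symbols made up 4 of the 8 calls.

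Of these, Mrp63 had the largest fold and, in the authors' deposited table, rose from 7.09 to 14.0 FPKM (log2 fold 0.98 with an SE of 0.18 and q = 3.6e-06). Mrp63 was the only gene of the 45 still called after removal of the composition trend. Aurkaip1, a small subunit protein that also binds a mitotic kinase, rose from 144 to 245 FPKM (log2 fold 0.76 with an SE of 0.18 and q = 0.00085). Ict1, a peptidyl-tRNA hydrolase built into the large subunit, rose from 69.7 to 110 FPKM (log2 fold 0.66 with an SE of 0.22 and q = 0.027), and Chchd1, a small subunit protein, from 223 to 303 FPKM (log2 fold 0.45 with an SE of 0.16 and q = 0.044). The assembly factors Mpv17l2 (log2 fold 0.74, q = 0.0058), Rbfa (0.68, q = 0.0018) and Gtpbp5 (0.59, q = 0.049) also rose as deposited. Tsfm, the exchange factor that recharges the elongation factor Tufm, was the only translation factor called (log2 fold 0.65 with an SE of 0.20 and q = 0.012). With the composition trend removed, Mpv17l2 stood at -0.034, Rbfa at -0.001 and Gtpbp5 at 0.027. Aurkaip1 then stood at 0.12, Ict1 at 0.46, Chchd1 at 0.029 and Tsfm at 0.26. Tufm itself had a log2 fold of 0.42 (SE 0.16), and the initiation factor Mtif2 of -0.29 (SE 0.25), neither called.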

How the data were processed

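The authors deposited 1 gene table for the 6 libraries, with the column layout of Cuffdiff. Per the file headers it holds an FPKM value for each group, computed by the authors over the 3 libraries, a log2 fold change, a test statistic (a score without a fixed range), a p-value and a q-value. Cuffdiff, Cufflinks 2.0.2, TopHat2 2.0.8, Bowtie and Picard are listed with build mm9 in the submitters' processing notes, with no roles. The gene models behind the table were not given in the sources used here. Per the labels' protocols, RNA was captured on oligo-dT beads and copied with random primers. Columns of single libraries number 0, so the authors' test was used, with no SD.

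Computed here were the implied SE (fold over statistic), sums, medians, counts and, with Python 3.11.15, statsmodels 0.14.6 and patsy 1.0.2, the trend of the fold on GC content and log2 length (natural splines with 6 degrees of freedom each, rows with at least 1 FPKM), with new normal-tail p-values and Benjamini-Hochberg adjustment. Both properties were those of the gene's longest basic transcript in GENCODE vM21 (build GRCm38), found for 17000 rows (95.3% of those with a finite fold) and all 76 members. A further 284 tested rows list 0 in 1 group. The method was tried on simulated data with a trend linear in GC content and log2 length. A criterion for the recovery of changed genes over all rows was not met. It was then set to rows with small SEs only. Coordinates of genes are those of the table (mm9), and promoters are of GRCm38.p6.

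Members, lists and tests were chosen with earlier results of these data known. Named with full statistics were, per subunit, the 8 largest rises, the 3 highest levels and the 3 lowest folds, members of rows that join several genes, Mrps18a, Mrps30 and Mrps36. Other names, the head-to-head pairs, row spans, motif cores and the comparison with genes of 5 FPKM were chosen after values were seen. Alternatives were q-value thresholds, minima of fold and FPKM, pseudocounts, the shift and trend corrections, and other member sets.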

Additional observations from a re-analysis of the deposited data

How the results depend on the processing

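No member was called lower under any setting run. For large subunit, small subunit and other mitochondrial translation genes in turn, the number called higher was 16, 13 and 8 as deposited. It was 10, 6 and 4 at a q-value under 0.01, and 8, 3 and 2 with the median shift subtracted. It was 2, 4 and 1 with the trend on GC content and length removed, 3, 3 and 1 with length alone, and 4, 3 and 1 with GC content alone. It was 2, 5 and 1 with the median over transcripts, a setting chosen after seeing the data. Fewer members passed in each case. At the lower q-value this follows from the threshold itself, and the shift subtracted was above 0, which lowers every fold. The cause of the losses with the trends removed was not tested. A q-value under 0.1 gave 20, 18 and 11, a minimum of 1.5-fold 14, 11 and 7, and single-gene rows 16, 12 and 8. The shares of all rows called at these last settings are not given here, so these counts cannot be read against the whole series. The difference between subunit medians, -0.13 as deposited, ranged from -0.14 to 0.005 and was above 0 with the trend on GC content and length removed. Members with an SE above 0.4 were left out after seeing the data (-0.12). Removal of the GC and length trend turned the sign of 20 of the 76 members, 19 of them to below 0. Of the 31 members that the naming rule picks, 9 turned: Mrpl1 (0.10), Mrpl20 (-0.12), Mrpl42 (-0.011), Mrpl53 (-0.18), Mrps18a (-0.061), Mrps2 (-0.19), Mrps22 (-0.15), Mrps34 (-0.12) and Mrps6 (-0.19). The shift turned 6 members to below 0, 5 of them among those 31: Mrpl32 (-0.048), Mrpl50 (-0.18), Mrps2 (-0.16), Mrps22 (-0.13) and Mrps30 (-0.054). No paired analysis was possible because the table holds 1 pooled value per group, and leaving out single libraries was not run for the same reason. The depth of the libraries is unknown.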
